A study of Drosophila melanogaster with 8 samples.

Results

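The distribution of H3K27me3 over input was described along the genome of can mutant testes of Drosophila melanogaster. The profile was built from 2 H3K27me3 libraries (can_H3K27me3) and 2 input libraries (can_input), which the authors combined into 1 score at each position. All libraries came from testes of adult males, 3 days old, homozygous for a mutation in can, whose allele is not given in the labels, with 400 testes as starting material for the 2 biological replicates. The series also holds the same kinds of library from comr mutants, and no profile of wild-type testes was analysed here. Members were all 1 kb windows of the can profile on X, 2L, 2R, 3L, 3R and 4, taken from rows that start 500 bp into a kb, which gave 114670 windows of 252756 in the series. The contrast is therefore ChIP against input within 1 mutant. Pooling left 1 value per window, so no replicate spread and no test across samples were available, and errors below describe scatter along the sequence.

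H3K27me3 is placed by Polycomb repressive complex 2 and marks genes held silent through cell generations, in Drosophila often as broad domains over developmental regulators. The product of can (cannonball) is a TBP-associated factor homologue found in the testis, which primary spermatocytes need to switch on genes for meiosis and spermatid formation. Without it germ cells arrest as spermatocytes, so these testes hold germline stem cells, spermatogonia, spermatocytes and the somatic cyst and sheath cells, but lack spermatids. A whole testis averages over these cells, and a mark on fewer cells cannot be told apart from less of the mark in each cell. Pericentric heterochromatin and chromosome 4, the small dot chromosome, are packaged mainly through methylation of H3 lysine 9, a separate silencing system. No gene annotation of the files' build, dm3, was used here, so regions are named by position and the mark was not set against gene expression.

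Scores ran from -4.23 to 3.87 over the windows, with a median of 0.02 and an SD of 0.57. The base of the scale is not stated, but repeated values show it. The score 0.23 was the most frequent, with 29385 rows. Relative to it, the positions expected for whole-number ratios from 1 to 8 up to 6 to 1 on a log2 scale held at least 2 times as many rows as neighbouring scores in 9 of 10 cases. On natural log and log10 scales 0 of 10 did. Rows at -0.77, the place of a ratio of 1 to 2, numbered 18235, against a median of 750.5 at the 10 nearest scores. A score difference of 1 thus reads as 2-fold on the deposited scale, and ratios below are given on that scale. The authors' normalization, described below, may have stretched or compressed differences in H3K27me3 over input, which was not tested.

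Exact repeats were most frequent, relative to nearby scores, on X, which males carry as a single copy. On X, 578 windows stood exactly at -0.77 and only 25 at any other score within 0.05 of it, whereas on 2L, 2R, 3L and 3R together 1279 stood there and 1061 around it. If a score comes from 1 ratio of whole numbers, another value that near to 1 to 2 needs a denominator of at least 29. Depth itself is unknown, and no counting interval can be attached to a window. A score made from few reads can take few values, and the part of this coarseness in the results for X was not tested. Window scatter, taken from differences between adjacent windows, was 0.65 on X, 0.55 on chromosome 4 and 0.46 on the 4 autosomal arms, and it is wide against most of the regional differences described below.

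The mark stood highest on X and lowest on chromosome 4, and the 4 autosomal arms lay close to 0. X averaged 0.13 (SD 0.70 over 20931 windows) and the arms averaged 0.01 (SD 0.53 over 92506 windows). The difference of 0.12 ± 0.01 (standard error over 100 kb blocks, which treats blocks as independent) amounts to a ratio of 1.09. Chromosome 4 averaged -0.35 (SD 0.61 over 1233 windows), and its difference from the arms was -0.35 ± 0.04, a ratio of 0.784. Outside the enriched and depleted domains described below, which were picked by score, X still differed from the arms by 0.0576 and chromosome 4 by -0.110. The arms themselves spanned only -0.02 on 3L to 0.03 on 3R. All 13 blocks of chromosome 4 were below 0, whereas 159 of 223 blocks were above 0 on X and 459 of 965 on the arms. The sorted values of the profile equal those of the comr profile, which the authors' normalization makes so, and only differences along the genome can be read and not a total amount.

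**Figure D1:**
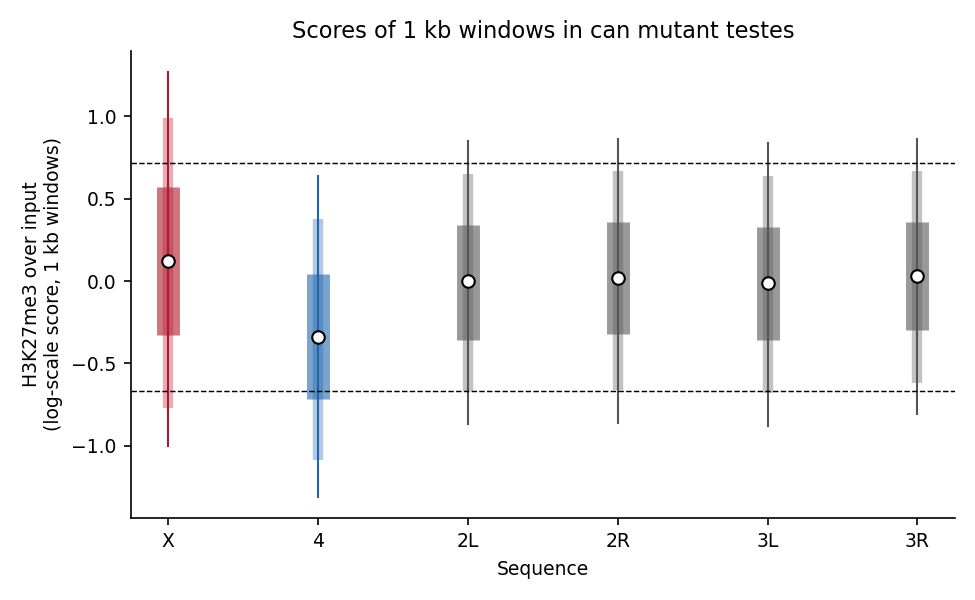
Scores of 1 kb windows on each sequence (vertical axis, log-scale score of H3K27me3 over input), with the median as a circle and bars for the middle 50%, 80% and 90% of windows. X has the widest bars, chromosome 4 has its median at -0.34, and dashed lines mark the thresholds of 0.72 and -0.67.

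Windows with the highest and lowest scores were called to find where the mark was concentrated and where it was low. Enriched windows scored at least 0.72, which took in 11588 windows or 10.1% of all, and depleted windows scored at most -0.67, which took in 11837 or 10.3%. On X 18.7% of windows were enriched, against 8.24% on the arms, and X supplied 33.8% of all enriched windows from 18.3% of all windows. On chromosome 4 only 3.97% were enriched (49 of 1233 windows, 95% Wilson interval 3.02 to 5.22, counting error only) and 28.8% were depleted (355 windows, 26.3 to 31.4). Depleted windows made up 12.1% of X and 9.67% of the arms. At 1 kb X was therefore over-represented in both tails. The repeats at -0.77 fall inside the depleted call. They made up 578 of the 2537 depleted windows of X and 1279 of the 8945 of the arms, and their part in the low tail was not tested.

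Averaging over longer bins separated the tails of X. Of the bins of X, 20.7% at 10 kb and 21.1% at 100 kb were in the highest 10% of all bins, against 7.68% and 7.67% of the bins of the arms. The percentage of X bins in the lowest 10% fell with bin size. It went from 12.1% at 1 kb to 10.2% at 3 kb, 6.82% at 10 kb and 2.69% at 100 kb, where the arms had 10.8%. The excess of low windows on X was thus present at 1 kb, the bin size with the largest scatter, and was turned round at 10 kb and above. Chromosome 4 moved the other way, with 40.7% of its 3 kb bins, 55.9% of its 10 kb bins and 84.6% of its 13 bins of 100 kb in the lowest 10%. The low scores of that chromosome were spread over its length and not held by a few windows.

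**Figure D2:**
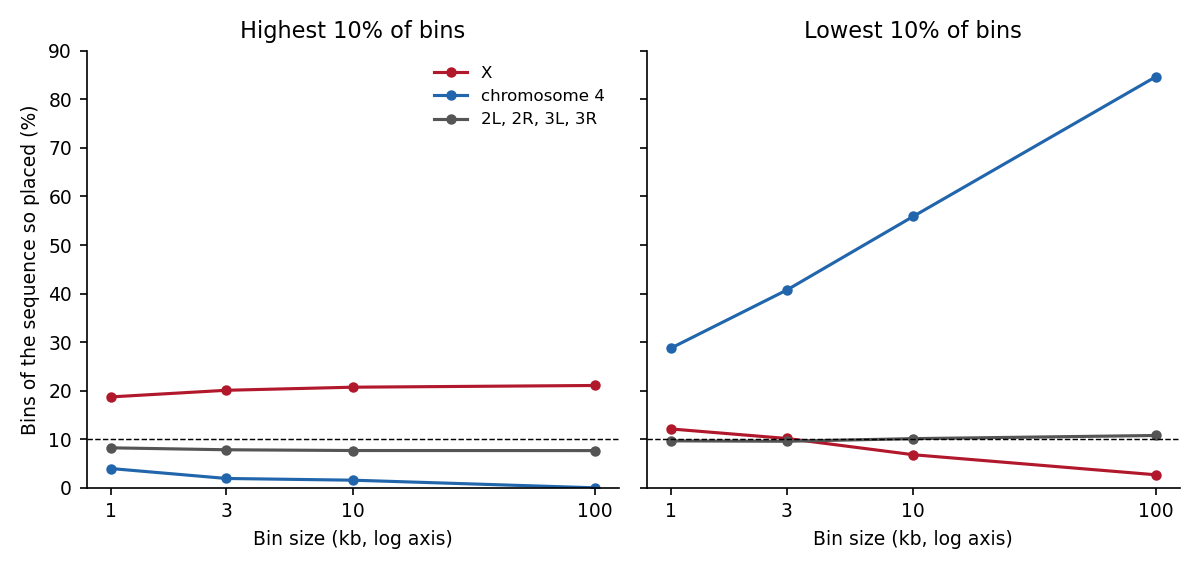
Percentage of the bins of X, of chromosome 4 and of the 4 autosomal arms (vertical axis) that lie among the highest 10% (left) or lowest 10% (right) of all bins. The horizontal axis is bin size in kb on a log axis. X keeps its place at the high end from 18.7% to 21.1% and leaves the low end, falling to 2.69%, while chromosome 4 reaches 84.6% at the low end.

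Along the autosomal arms the score was high toward the telomere and low in the Mb beside the centromere. On X the score was high toward both ends. The 5 Mb at the telomere side exceeded the rest of the sequence by 0.25 on 2R, 0.21 on 3R, 0.16 on 2L and on 3L and 0.12 on X. Errors over windows, here and below, treat windows as independent. Means of neighbouring 100 kb bins correlated at 0.60 on the arms and 0.54 on X, so these errors are too small for comparing regions. The rise was steepest on 2R, where the last Mb averaged 0.39 ± 0.01 (standard error over 962 windows) against -0.01 for the rest of the arm. On 3R the last Mb averaged 0.29 ± 0.01 (960 windows) against 0.02. In that Mb of 2R 23.9% of windows were enriched and 1.25% depleted. In that of 3R 17.3% were enriched and 1.77% depleted. When X was divided into 3 parts of equal length, the part at the telomere side averaged 0.20 ± 0.01, the middle part 0.04 ± 0.01 and the part at the centromere side 0.15 ± 0.01 (standard error over windows). The 4 autosomal arms instead had values of 0.07 to 0.16 in the part at the telomere side and below 0 in both others.

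The outermost sequence did not follow this rise on every sequence. The last 0.2 Mb at the telomere side averaged -0.22 ± 0.06 on X (138 windows) and -0.09 ± 0.03 on 2L (195 windows), below the rest of those sequences at 0.13 and -0.01. On 3L the value was 0.01 ± 0.03 (191 windows), within its error of 0. On 2R and 3R the last 0.2 Mb stayed high, at 0.39 ± 0.04 and 0.20 ± 0.04 (185 and 183 windows). The ends were thus low on X and high on 2R and 3R. That of 2L differed from its rest by less than the SD of the 100 kb blocks of 2L, 0.16. Its depleted share was 10.3%, against 10.2% over 2L.

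At the centromere side the deficit was deepest on 2R. Its first Mb averaged -0.32 ± 0.02 (843 windows), against 0.03 over the rest of the arm, with 2.73% of windows enriched and 26.9% depleted, and the first 2 Mb averaged -0.29 ± 0.01. The corresponding Mb averaged -0.14 ± 0.02 on 2L, -0.11 ± 0.02 on 3L and -0.06 ± 0.02 on 3R. Over the 5 Mb at that side the deficit was smaller, with -0.09 on 2L and -0.07 on 2R, against 0.01 and 0.04 over their rest. On 3R it was -0.01 against 0.04, and 3L had no deficit, with -0.01 against -0.02. From 2 to 3 Mb off that end 3L and 3R were high, at 0.18 and 0.15. X had 0.07 ± 0.03 in its Mb beside the centromere, against 0.13 over its rest. Over the 5 Mb there X had 0.21 ± 0.01, against 0.11 over its rest. The mean of the Mb beside the centromere was thus above 0 on X only, where all scores lay higher on average. Against the rest of its sequence that Mb differed by -0.06 on X, -0.09 on 3R, -0.10 on 3L, -0.14 on 2L and -0.34 on 2R.

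**Figure D3:**
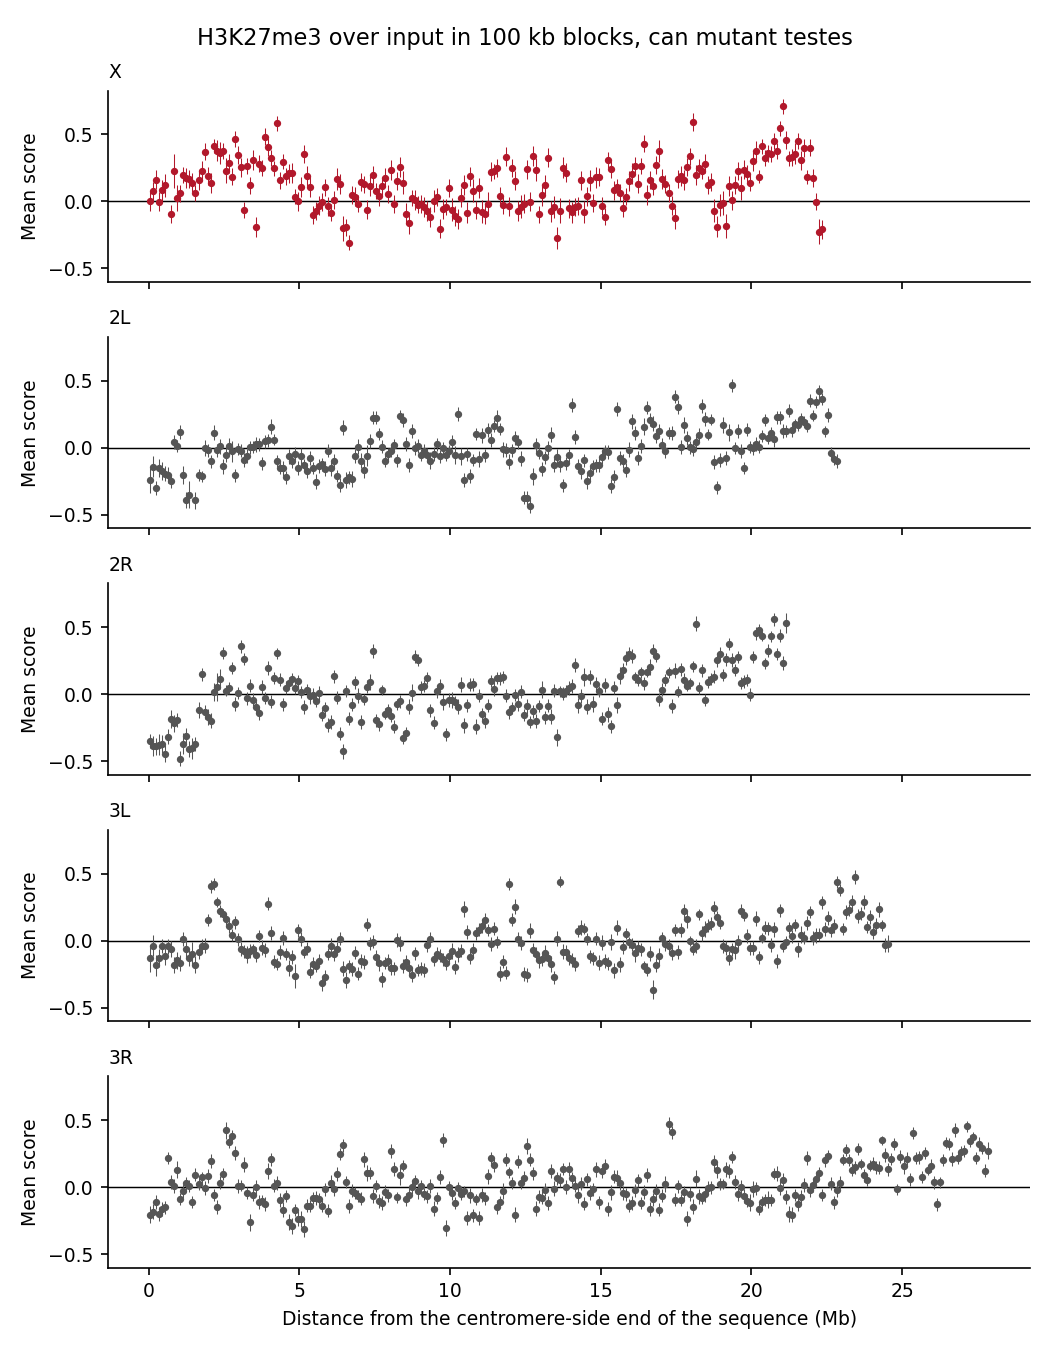
Mean score of 100 kb blocks (vertical axis) against distance from the centromere-side end of each sequence in Mb, with standard errors over windows. Blocks are higher on average toward the telomere side on the 4 arms and toward both sides on X, the first 2 Mb of 2R average -0.29, and the last 0.2 Mb of X falls back to -0.22.

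Within this broad pattern single regions stood out on X. The region of 1 to 2 Mb was the highest of all 1 Mb regions, at 0.42 ± 0.02 (951 windows). It had 33 enriched domains and 1 depleted domain, against 22.3 and 12.7 per Mb over X. Its block of 1.3 to 1.4 Mb had the highest 100 kb mean, 0.71 ± 0.05, with 51% of its windows enriched and 1% depleted. The next blocks were 4.3 to 4.4 Mb at 0.59 ± 0.07, 18.1 to 18.2 Mb at 0.58 ± 0.05, 1.4 to 1.5 Mb at 0.55 ± 0.06 and 18.5 to 18.6 Mb at 0.48 ± 0.06. These high blocks lie toward both ends of X, and its lowest 1 Mb region was in the middle, at 12 to 13 Mb, with -0.05 ± 0.02 (964 windows). Low blocks were 15.7 to 15.8 Mb at -0.31 ± 0.06 and 8.8 to 8.9 Mb at -0.27 ± 0.08, followed by the first 2 blocks of the chromosome and by 12.7 to 12.8 Mb at -0.20 ± 0.07.

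On the autosomal arms the highest and lowest blocks were both mostly on 2R. The block of 20.7 to 20.8 Mb stood highest at 0.56 ± 0.05, with 30% of windows enriched and 0% depleted. It was followed on 2R by 21.1 to 21.2 Mb at 0.53 ± 0.08 (30 windows), 18.1 to 18.2 Mb at 0.53 ± 0.05 and 20.2 to 20.3 Mb at 0.48 ± 0.05, and on 3L by 1.1 to 1.2 Mb at 0.48 ± 0.05. The lowest were 1.0 to 1.1 Mb of 2R at -0.48 ± 0.06 and 0.5 to 0.6 Mb of 2R at -0.44 ± 0.06, and 1.3 to 1.4 Mb of 2R had -0.41 ± 0.06. These 3 lie in the region beside the centromere, but low blocks also occurred far inside the arms. The block of 10.2 to 10.3 Mb of 2L averaged -0.44 ± 0.05, with 30% of its windows depleted and 0% enriched, and 6.4 to 6.5 Mb of 2R averaged -0.43 ± 0.06.

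The lowest 1 Mb regions of 3L and 3R likewise lay inside the arm. On 3L the region of 16 to 17 Mb averaged -0.15 ± 0.02, with 3 enriched and 23 depleted domains. On 3R that of 5 to 6 Mb averaged -0.14 ± 0.02, with 1 enriched and 19 depleted domains. Over the autosomal arms there were 7.53 enriched and 9.47 depleted domains per Mb. Domain counts follow the same scores as the means, so they add no separate evidence. On 2L the lowest region, 22 to 23 Mb at -0.17 ± 0.02, lay beside the centromere and the highest, 0 to 1 Mb at 0.18 ± 0.02, at the telomere. The highest regions of 3L and 3R were 1 to 2 Mb on 3L at 0.25 ± 0.02, with 24 enriched and 2 depleted domains, and 27 to 28 Mb on 3R at 0.30 ± 0.02, with 19 enriched and 0 depleted domains. On chromosome 4 the blocks ranged from -0.59 ± 0.06 at 0.1 to 0.2 Mb up to -0.03 ± 0.05 at 0.7 to 0.8 Mb. That last block, with 8.08% of windows enriched and 12.1% depleted, had an enriched share near the 8.24% of the autosomal arms.

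Called windows were joined into domains, across gaps of at most 3 kb and with a length of at least 5 kb. Enriched domains numbered 1234 and spanned 10.3 Mb, and depleted domains numbered 1245 and spanned 10.1 Mb. Most were short: 916 enriched domains (74.2%) and 939 depleted domains (75.4%) were 5 to 9 kb long, with a median of 3 called windows, and 255 and 231 of these rested on 2 called windows. Such calls say little about single places, given the window scatter above, and the numbers follow the threshold, with 447 enriched domains at the highest 5% and 2660 at the highest 20%. The description therefore turns to domains of at least 20 kb. All 37 long enriched domains had means from 0.48 to 0.88 and all 36 long depleted ones means from -0.77 to -0.21, which the calling of windows by score largely fixes.

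Long enriched and long depleted domains differed in number mainly on X and on chromosome 4, which held 18.3% and 1.08% of all windows. Both kinds come from opposite ends of the same score, so that they hardly share places is fixed by the calls. Of the 37 enriched ones 24 lay on X, 5 on 2R, 4 on 3R, 3 on 2L, 1 on 3L and 0 on chromosome 4. Of the 36 depleted ones 10 lay on chromosome 4, 9 on 2R, 7 on X, 4 on 2L, 4 on 3R and 2 on 3L. The lead of X rests on the common threshold: with the highest 10% taken within each sequence, X had 5 long enriched domains and the arms 27, and the number of domains per Mb was 9.05 on X and 9.75 on the arms, against 22.3 and 7.53 with the common threshold. Depleted domains covered 43.4% of chromosome 4, against 7.58% of the arms, and held 87.3% of its depleted windows. This lead also rests on the common threshold: with the lowest 10% taken within each sequence, depleted domains covered 6.8% of chromosome 4 and 8.08% of the arms, and chromosome 4 had 0 long ones.

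By position, chosen after the values were seen, 12 of the 24 long enriched domains of X lay in its first 7 Mb, 11 between 17 and 21 Mb and 1 in the 10 Mb between. The 7 long depleted domains of X all lay between 3 and 16 Mb. On 2R all 5 long enriched domains lay beyond 16 Mb, and 7 of the 9 long depleted ones in the first 2 Mb. On 2L 3 of the 4 long depleted ones lay between 21 and 22 Mb, toward the centromere.

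The longest enriched domain was on X from 1309050 to 1364049 (55 kb). Its 55 windows ranged from -0.61 to 1.61, with a mean of 0.81 ± 0.07 (standard error over windows), and 52 were above 0. Windows 5 to 50 kb beyond its edges, here and below without those inside another long domain of the same kind, averaged 0.50 ± 0.06, so the domain was the summit of a high region and not an isolated one. The domain on 2R from 18125050 to 18173049 (48 kb) differed in this respect. It averaged 0.83 ± 0.07, with 29 of 48 windows enriched, and its surroundings averaged 0.16 ± 0.05.

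The other 8 of the 10 longest stood above their surroundings by differing amounts, as the choice by score favours. On 2R the domain from 16781050 to 16824049 (43 kb) averaged 0.58 ± 0.07 and its surroundings 0.23 ± 0.04, and that from 20688050 to 20727049 (39 kb) averaged 0.74 ± 0.07 and its surroundings 0.29 ± 0.04. On X the domain from 18125050 to 18165049 (40 kb) averaged 0.73 ± 0.09 in surroundings of 0.45 ± 0.07, and the one from 4267050 to 4299049 (32 kb) averaged 0.80 ± 0.13 in surroundings of 0.19 ± 0.07. Both of these exceeded their surroundings. The X domains from 19354050 (38 kb) and 19502050 (30 kb) were weaker, at 0.48 ± 0.11 and 0.58 ± 0.13, with surroundings of 0.30 ± 0.07 and 0.34 ± 0.07. On 2L the domain from 578050 to 611049 (33 kb) averaged 0.53 ± 0.09 in surroundings of 0.40 ± 0.04, a small difference. The errors test none of these differences, since the domains were chosen by score. The X domain from 1417050 to 1446049 (29 kb), close to the longest one, averaged 0.77 ± 0.08 in surroundings of 0.52 ± 0.06, with 18 of 29 windows enriched.

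With the common threshold the longest depleted domains were on chromosome 4. With thresholds within each sequence the longest was 13 kb there, against 35 kb on the arms. By the common threshold, the domain from 1132050 to 1172049 (40 kb) averaged -0.75 ± 0.09, with windows from -2.36 to 0.30, of which 3 of 40 were above 0. That from 1052050 to 1089049 (37 kb) averaged -0.66 ± 0.08, and another on this chromosome, from 479050 to 504049 (25 kb), averaged -0.70 ± 0.10. Surroundings of the first 2 averaged -0.28 ± 0.06 and -0.26 ± 0.08, and those of the other averaged -0.04 ± 0.07. On 2R the domain from 1523050 to 1554049 (31 kb), near the centromere, averaged -0.53 ± 0.10 in surroundings of -0.36 ± 0.06. Of these 4 domains 3 thus lay in regions low on the scale of all windows. The surroundings of the first 2 were not below the mean of chromosome 4, which was -0.35.

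The other 6 of the 10 longest depleted domains had surroundings from -0.17 to 0.14. On 2L the one from 2779050 to 2806049 (27 kb) averaged -0.33 ± 0.09, and the windows around it averaged 0.14 ± 0.05. On X the domain from 13859050 to 13885049 (26 kb) averaged -0.50 ± 0.13, with surroundings of 0.04 ± 0.08, and that from 8850050 to 8878049 (28 kb) averaged -0.48 ± 0.16, with surroundings of -0.17 ± 0.08. Those on 2R from 9796050 (28 kb), on 3R from 5020050 (28 kb) and on 3L from 9135050 (26 kb) averaged -0.48 ± 0.09, -0.44 ± 0.13 and -0.54 ± 0.13, with surroundings of -0.13 ± 0.06, -0.17 ± 0.06 and -0.01 ± 0.06. Another long depleted domain lies beside the one on 3L, and with its windows that value was -0.15 ± 0.05. In each of these 6 the domain lay below its surroundings, as the choice by score favours.

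**Figure D4:**
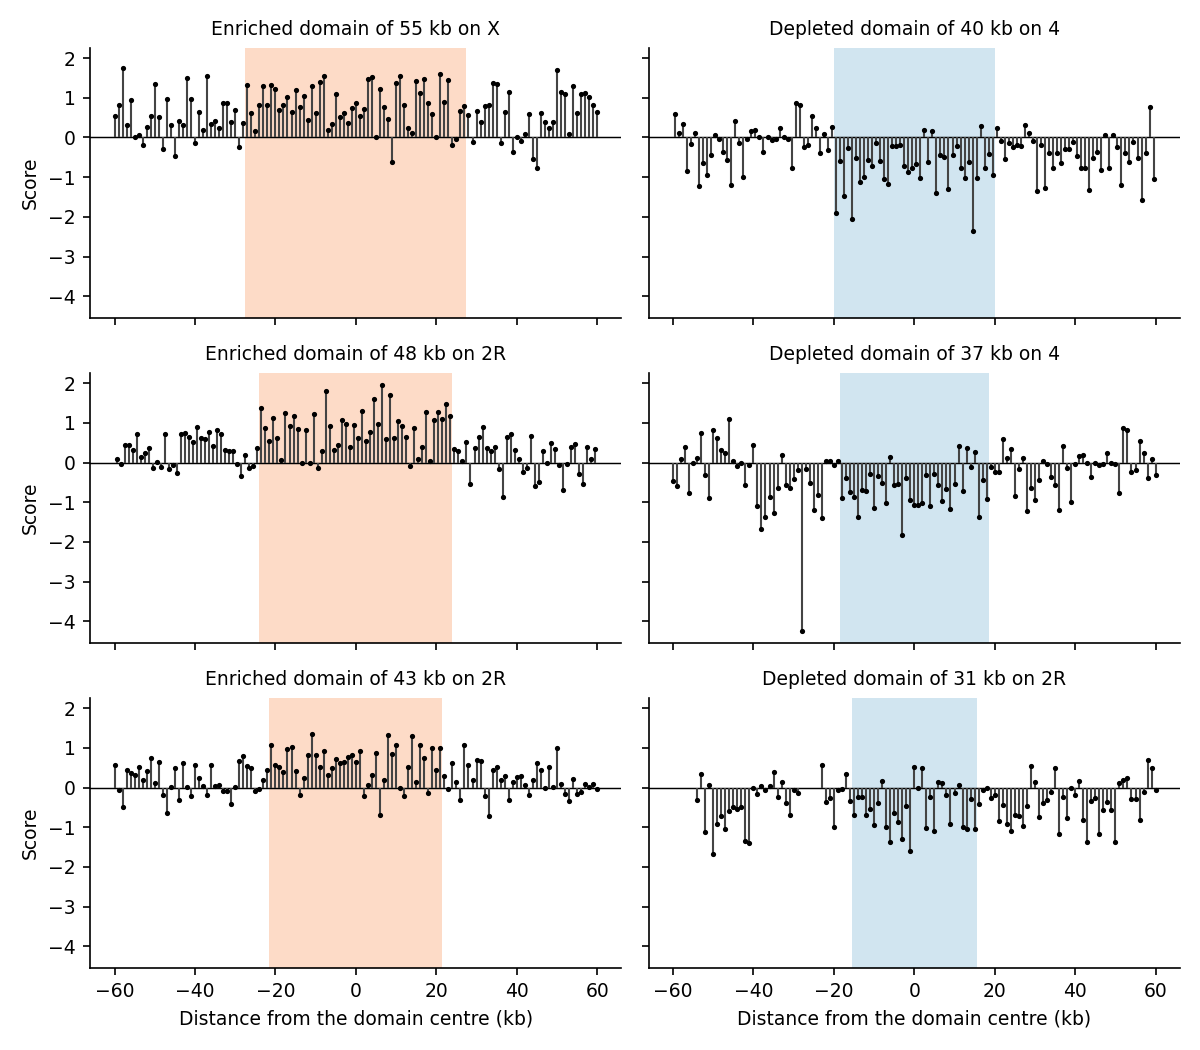
Scores of 1 kb windows (vertical axis) around the 3 longest enriched domains (left) and the 3 longest depleted domains (right), against distance from the domain centre in kb, with the domain shaded. In the longest enriched domain 52 of 55 windows are above 0, and in the longest depleted one 3 of 40 are, with single windows of either sign beside each other in all 6.

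On X and the arms the surroundings of long domains leaned the same way as the domains, beyond the reach of the joining rule. Windows inside any long domain of the same kind were left out of these means, whereas windows of shorter domains were kept. Outside the 24 long enriched domains of X, windows 5 to 10 kb from the edge averaged 0.37, those at 21 to 50 kb 0.31 and those at 51 to 100 kb 0.24, against 0.13 for X as a whole. The 13 long enriched domains of the arms had 0.33, 0.26 and 0.18 at these distances, against 0.01 for the arms. At 51 to 100 kb 14.2% of windows around the domains of the arms were enriched, against 8.24% on the arms, and 11 of the 13 surroundings were above the arm mean. The 7 long depleted domains of X had -0.18, -0.10 and -0.01. The 19 long depleted domains of the arms had -0.23, -0.22 and -0.15, and at 51 to 100 kb 17 of the 19 surroundings were below the arm mean. On chromosome 4 the surroundings of the 10 long depleted domains averaged -0.44 at 5 to 10 kb and -0.28 at 51 to 100 kb, against -0.35 for the whole chromosome, long domains included. Long domains are found more readily where scores are already high or low, so a lean of this kind is partly fixed by their choice.

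At short range a window said little about its neighbour. Scores of windows 1 kb apart correlated at 0.13 on X (20502 pairs) and 0.21 on the arms (91593 pairs), and those 100 kb apart at 0.04 on X and 0.06 on the arms. All pairs come from 1 profile and share its libraries and depth. Means of neighbouring bins correlated at 0.38 on X and 0.48 on the arms at 10 kb, and at 0.54 on X and 0.60 on the arms at 100 kb. Means of long bins thus correlated more with their neighbours than single windows did. Averaging lowers the window scatter, so a rise of this kind is partly fixed by bin size.

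The calls showed a like decay with distance. On X 23.8% of windows 1 kb from an enriched window were enriched, which is 1.27 times the X share of 18.7%, and 21.3% were at 10 kb. On the arms 16.1% were at 1 kb, 1.95 times the arm share of 8.24%, 12.0% at 10 kb and 9.89% at 100 kb. For depleted windows the share at 1 kb was 18.1% on X and 17.5% on the arms, which is 1.49 times the share of X and 1.81 times that of the arms. On chromosome 4 it was 33.6% at 1 kb, which is 1.17 times the 28.8% of the whole chromosome. There it did not fall steadily, with 35.6% at 5 kb, 30.7% at 10 kb, 28.3% at 50 kb and 33.4% at 100 kb. Relative to the share of all windows, enriched neighbours were thus less frequent on X than on the arms in this profile, also with thresholds within each sequence (1.35 times on X and 1.87 times on the arms).

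**Figure D5:**
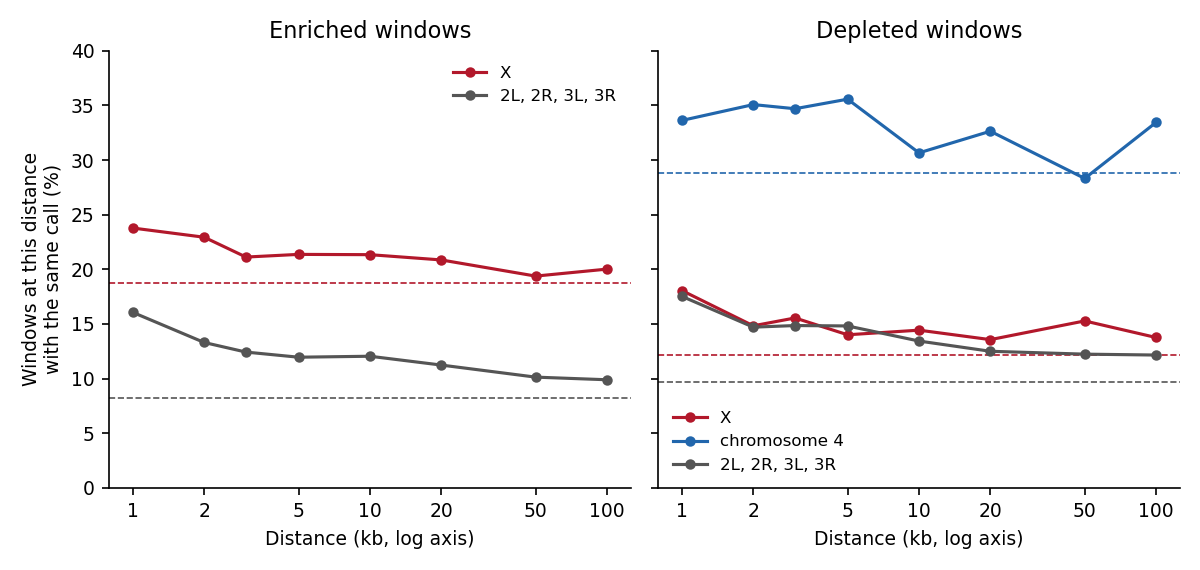
Share of windows with the same call (vertical axis, percent) against distance from an enriched window (left) or a depleted window (right) in kb on a log axis, for X, chromosome 4 and the 4 autosomal arms, with dashed lines at each share over all windows. For enriched windows X stays between 19.4% and 23.8%, the arms fall from 16.1% at 1 kb to 9.89% at 100 kb, and chromosome 4 is left out at the left, where it has 49 enriched windows.

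The highest single windows stood beside much lower ones. The 5 highest were all on X, led by the window from 16063050 to 16064049 with 3.87, whose neighbours scored -0.36 and -1.21. The windows from 5020050 and 357050 scored 3.62, those from 8746050 and 3111050 scored 3.55, and of the 10 neighbours of these 5 windows only those of 3111050, at 0.73 and 0.08, were above 0, with 0.73 itself past the enriched threshold. Of the 100 highest windows 79 lay on X, 20 on the arms and 1 on chromosome 4. Of the 100 lowest 44 lay on X, 50 on the arms and 6 on chromosome 4, led by the window on chromosome 4 from 1042050 to 1043049 with -4.23, between neighbours of -0.19 and -0.17. It was followed by the windows from 21834050 on X with -4.19, 1149050 on 2R with -4.09, 21925050 on X with -3.36, whose only neighbour with a value scored -1.36, and 931050 on 2R with -3.09. X, with 18.3% of the windows and the widest scatter, supplied the larger part of the upper extreme.

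Windows without a value were also unevenly placed. They made up 6.65% of X, 6.8% of chromosome 4 and 4.01% of the arms, counted between the first and last row of each sequence. The largest gaps were 113 kb on 2L from 21429050 to 21542049, in the Mb that holds 3 of its long depleted domains, and 74 kb on X from 21687050 to 21761049. Scores on either side of such gaps describe only the positions that kept a value.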

How the data were processed

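H3K27me3 and input libraries (2 each) from testes of can mutants, kept at 23 °C, were made with a small-input ChIP and library kit and sequenced on a MiSeq, per the labels' protocols. Per the file headers, the authors deposited a score for H3K27me3 over input, in 1000 bp bins and after a step abbreviated QN, with 1263776 rows 100 bp apart. Per the submitters' processing notes, dm3 is the build. Aligner, read filters and how replicates were pooled: not given in the sources used here. Depth is unknown. Windows were taken as centred on their row. The members, thresholds and rules were chosen with earlier results of these data known. Regions named were the 10 longest domains of each kind, the 5 highest and lowest 100 kb blocks of X and of the arms, the highest and lowest 1 Mb regions, the chromosome ends and the 5 most extreme windows of each kind. Blocks needed 20 windows, 10 kb bins 5 and 1 Mb regions 100. Alternatives changed thresholds, joining, lengths, row positions, bins and the mean. Gene-level comparisons in the plan were left out, since the gene table at hand follows another build. The calling of domains was checked on simulated data with independent normal scatter and with domains placed on the autosomal arms only. Recovery of domains on X and chromosome 4 was thus not checked, nor was recovery with repeated scores like those described above. Python 3.11.15, numpy 2.4.6, pandas 2.3.3, scipy 1.17.1 and matplotlib 3.10.9 were used.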

Additional observations from a re-analysis of the deposited data

How the results depend on the processing

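Of the alternatives, those with 10 kb and 100 kb bins and those on the surroundings of long domains were chosen after seeing the data. No paired analysis was possible because each value combines both replicates, and no replicate could be left out. Outside enriched and depleted domains, which were picked by score, the mean was 0.0714 on X and -0.0961 on chromosome 4, and the differences from the arms were 0.0576 and -0.110. The enriched share of X over that of the arms (2.27) was 3.21 at the top 5%, 1.65 at the top 20%, 2.49 over 3 windows, 2.70 in 10 kb bins and 2.75 in 100 kb bins. For chromosome 4 (0.482) it was 0.285, 0.205 and 0.0 in the last 3 of these. The depleted share of X over that of the arms (1.25) was 1.497 at the bottom 5%, 1.03 at the bottom 20%, 1.03 over 3 windows, and was turned round in 10 kb bins (0.673) and 100 kb bins (0.25). The cause was not tested. For chromosome 4 (2.98) it was 3.58, 2.22, 4.43, 5.52 and 7.85 under the same settings. Enriched domains (1234) numbered 447 at the top 5%, 2660 at the top 20%, 30 with no gaps joined and 318 with a minimum of 10 kb. Depleted domains (1245) numbered 421, 2764, 19 and 306. Long enriched domains (37) numbered 10, 268 and 0, and long depleted domains (36) 2, 274 and 0, at 5%, 20% and with no gaps joined. The 2R region from 20 Mb (0.39) had a median of 0.355, and the enriched neighbour share on X (1.27 times) was 1.35 with thresholds within each sequence. Rows starting at each kb turned no direction round and moved no count of domains by over 1.5 times. Unknown depth and 1 pooled profile limit all values.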

Other observations

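The can profile also covers sequences outside the 6 main ones, which the windows described above leave out. On YHet, the mapped part of the Y chromosome, 163 windows averaged -0.29 (SD 0.80), with 31.3% at or below the depleted threshold and 8.59% at or above the enriched one (14 windows, 95% Wilson interval 5.19 to 13.9). On XHet 140 windows averaged -0.08 (SD 0.73), with 17.1% depleted and 10.7% enriched (15 windows, 6.6 to 16.9). On 3LHet 18.6% of windows were depleted and 6.20% enriched, a depleted share close to that of XHet. The depleted share was 26.4% on 2LHet, 27.2% on 2RHet, 26.8% on 3RHet and 27.3% on U, and the enriched share was 7.11%, 3.82%, 3.97% and 8.63%.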
